A study of Mus musculus with 35 samples.

Results

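The transcripts described here are 38 autophagy and lysosome control genes of the mouse hypothalamus, chosen by name from the 49568 gene names counted in each library. Their summed reads made up 0.366% to 0.400% of the counts of a library, and all 38 passed the filter on low counts, as did 18063 genes in all. The study sequenced polyA RNA from the dissected hypothalamus of male B6/J mice, the brain region that controls feeding and holds the central circadian clock. Every sample was taken at ZT16, which is 16 h after lights on. Control mice fed ad libitum gave 10 libraries, and control mice fasted from ZT0 to ZT16 gave another 10. Mice with PER2-S662D, an altered PER2 clock protein, gave 5 fed and 5 fasted libraries. The last 5 libraries came from fasted mice labelled Per2 ko. How either allele was made is not given in the sources used here, and fed mice of the labelled knockout were not analysed here.

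Libraries held 17959586 to 37027342 counts. Nothing in the labels ties a library to a named animal, so the p-values below measure the spread between these samples. Bulk RNA cannot separate fewer cells of a type from less RNA per cell. Per2 itself was not called lower in fasted libraries labelled Per2 ko than in fasted controls (log2 fold change 0.06, SE 0.07, adjusted p = 0.935 by edgeR's quasi-likelihood test). Those libraries are therefore called "labelled Per2 ko" throughout. In S662D libraries Per2 was lower than in controls, with log2 fold changes of -0.59 fed and -0.55 fasted. Library names in the file headers place control libraries 1 to 5 and 6 to 10 in separate number ranges, and give S662D libraries 2, 3 and 4 of each feeding state an extra final digit. The ranges of the S662D and the labelled Per2 ko libraries hold no control, so there the genotype cannot be told apart from the library range.

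Autophagy is the route by which a cell wraps part of its own cytoplasm in a double membrane and delivers it to the lysosome for breakdown. A protein kinase complex starts the membrane, a lipid kinase complex marks it, a conjugation system attaches LC3 and GABARAP proteins to it, and cargo receptors bind both those proteins and the material to be removed. Most of this control is exerted on proteins, by AMPK and mTORC1 acting on the kinase ULK1, while TFEB and TFE3 switch on autophagy and lysosome genes when nutrients are short. In the hypothalamus, autophagy in neurons that drive feeding is known to respond to fasting.

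Levels per length differed far more among the 38 genes than any of them differed between groups. Gabarapl1, an LC3 relative that binds cargo receptors on the membrane, had the highest mean level over groups, 234.9 RPKM, a read count scaled to library size and exon length. Sqstm1, which encodes the cargo receptor p62, followed with 160.5 RPKM, and Map1lc3a, an LC3 gene, with 143.2 RPKM. The lowest levels were those of Tfeb (2.20 RPKM), of Atg4a, a protease that trims LC3 and GABARAP proteins (2.40 RPKM), of Uvrag, a subunit of the lipid kinase complex (3.43 RPKM), and of Tfe3 (3.83 RPKM). The median of the 38 genes was 11.2 RPKM against 4.05 RPKM over all 18063 genes tested, and 34 of the 38 lay above that median.

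The mRNAs were steady from group to group. The ratio of the highest to the lowest group mean ran from 1.02 for Optn, a cargo receptor of damaged mitochondria, to 1.48 for Atg4a. Its median was 1.10, against 1.17 over all genes tested. Within a group, the coefficient of variation between libraries had a median of 5.73% for the 38 genes and 10.1% for all genes, which are on the whole less abundant. Neighbours in the order of levels were often closer than their spread: Map1lc3a and Lamp1, at 143.2 and 139.5 RPKM, exchanged places between groups.

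**Figure D1:**
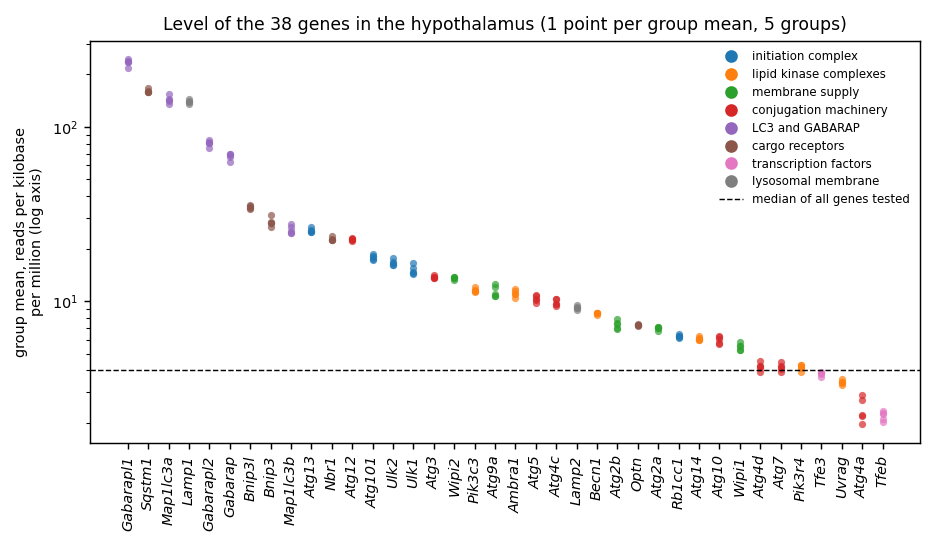
Mean level of each of the 38 genes in each of the 5 groups, in RPKM on a log axis, ordered by the mean over groups and coloured by role; the dashed line is the median of all genes tested (4.05). The 5 group means of a gene lie close together compared with the distance between genes, and Atg4a shows the widest separation between groups.

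The first comparison asked how these genes responded to the fast in control mice. Atg4a rose, and it was the 1 of 38 genes called at an adjusted p below 0.05, where 3.88% of all genes tested were called by edgeR's quasi-likelihood test. Fed controls had 4.72 to 6.97 CPM of Atg4a (counts scaled to library size) with a median of 5.90. Fasted controls had 6.38 to 8.22 CPM with a median of 6.99. The lowest fasted libraries lay inside the fed range. The log2 fold change was 0.31 (SE 0.07, n = 10 and 10, adjusted p = 0.00564 by edgeR), and DESeq2 also called Atg4a alone. At an unadjusted p below 0.05 were 6 of the 38 genes and 13.3% of all genes.

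The other genes had log2 fold changes between -0.15 (Tfeb) and 0.10 (Atg5). Atg4c, another LC3-trimming protease, had the next smallest adjusted p (0.259 by edgeR) with a log2 fold change of -0.10. The median over the 38 genes was 0.01, and the median size regardless of sign was 0.02, against 0.06 over all genes tested. For 36 of the 38 genes the 95% interval lay within 0.2 log2 units of 0, a change of 14.9%, compared with 47.3% of all genes. These intervals describe the average over all control libraries. Within the 2 sets of control libraries described below, the fasting values had opposite signs for 26 of the 38 genes. Over all genes tested in both sets this held for 10348 of 17660.

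By role, the initiation complex (Ulk1, Ulk2, Rb1cc1, Atg13, Atg101) had a median log2 fold change of -0.01, the lipid kinase complexes (Becn1, Pik3c3, Pik3r4, Atg14, Uvrag, Ambra1) of 0.01, and the membrane-supply genes (Atg2a, Atg2b, Atg9a, Wipi1, Wipi2) of 0.03. None of these genes was called. Map1lc3a, Map1lc3b, Gabarap, Gabarapl1 and Gabarapl2, which code for the proteins attached to the membrane, ran from -0.02 (Gabarapl1) to 0.04 (Map1lc3b). Apart from Atg4a, the conjugation machinery (Atg3, Atg4c, Atg4d, Atg5, Atg7, Atg10, Atg12), which trims LC3 and GABARAP proteins and couples them to lipid, ran from -0.10 (Atg4c) to 0.10 (Atg5). Sqstm1, Nbr1, Optn, Bnip3 and Bnip3l, the cargo receptors, ran from -0.05 (Bnip3l) to 0.03 (Bnip3). Lamp1, a structural protein of the lysosomal membrane, had 359.2 to 381.7 CPM in fed and 347.9 to 400.8 CPM in fasted controls. Its ranges overlapped almost wholly, and its log2 fold change was -0.0004 (95% interval -0.06 to 0.06).

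**Figure D2:**
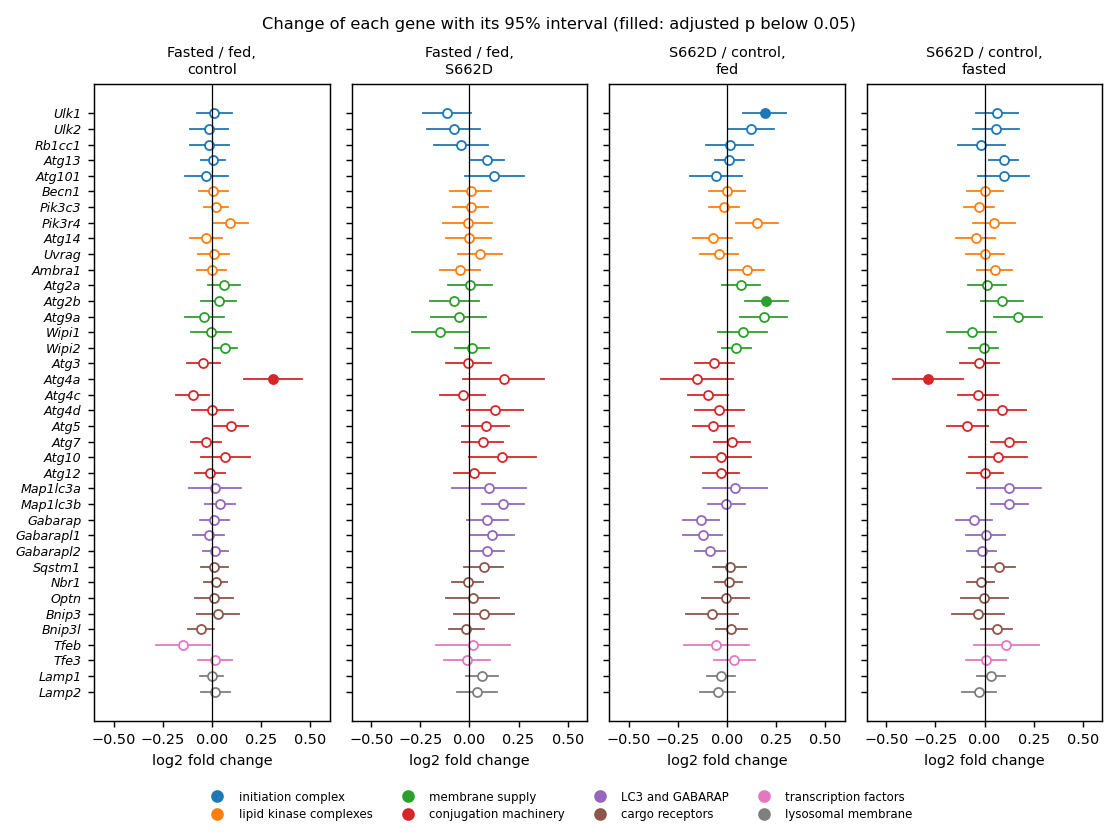
Log2 fold change of each gene (circles) with its 95% interval (lines) for fasting in controls, fasting in S662D, and S662D against control in fed and in fasted mice; filled circles passed an adjusted p of 0.05 and colours give the role. Filled circles are Atg4a in the first and last panels and Ulk1 and Atg2b in the third; most other intervals include 0.

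Atg4a needs care because few reads support it. Its counts ran from 87 to 213 per library. It lies on chromosome X (140956907 to 141164270, plus strand, in the annotation supplied, mm10 coordinates), and 51.2% of the 50-base words of its exons also occur in the pseudogene Atg4a-ps on chromosome 3. Of the Atg4a words, 12.6% occur in Syt6, whose locus overlaps that pseudogene, and these are among the words shared with the pseudogene. Because the deposited counts include reads that map to several places, part of the Atg4a count could come from those copies. Atg4a-ps itself received 0 to 8 counts per library and was not tested, and Syt6 was not called on fasting in controls (log2 fold change 0.08, adjusted p = 0.759 by edgeR).

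The fasting response was not alike in the 2 sets of control libraries. Among controls 1 to 5, 7.40% of all genes were called on fasting, and among controls 6 to 10, 1.71%. In the first set 2 of the 38 genes were called, Atg4a (log2 fold change 0.48, adjusted p = 0.00408) and Tfeb (-0.42, adjusted p = 0.00155), both by edgeR. In the second set edgeR called 0 of the 38 (5 at an unadjusted p below 0.05; DESeq2 was not run within sets), with Atg4a at 0.14 (adjusted p = 0.471) and Tfeb at 0.12 (adjusted p = 0.449).

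Tfeb shows how the sets offset each other. In controls 1 to 5, Tfeb was 14.5 ± 0.710 CPM fed (SD, n = 5) and 10.9 ± 1.02 CPM fasted (SD, n = 5), with no overlap between the feeding states. In controls 6 to 10 it was 12.01 ± 0.769 CPM fed and 13.1 ± 0.795 CPM fasted (SD, n = 5 each). By mean, the fed libraries of the first set were the highest of the 4 sets of control libraries and its fasted libraries the lowest. Over all 20 libraries the log2 fold change was -0.15 (SE 0.07, adjusted p = 0.330 by edgeR), a value that describes neither set.

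Map1lc3a showed the same crossing. In controls 1 to 5 it had 165.0 to 182.6 CPM fed and 122.1 to 161.3 CPM fasted. In controls 6 to 10 it had 133.7 to 176.4 CPM fed and 175.3 to 195.7 CPM fasted. The fasted libraries were thus lower in the first set and mostly higher in the second, with log2 fold changes of -0.22 (adjusted p = 0.0623) and 0.24 (adjusted p = 0.0799) that were each not called by edgeR.

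**Figure D3:**
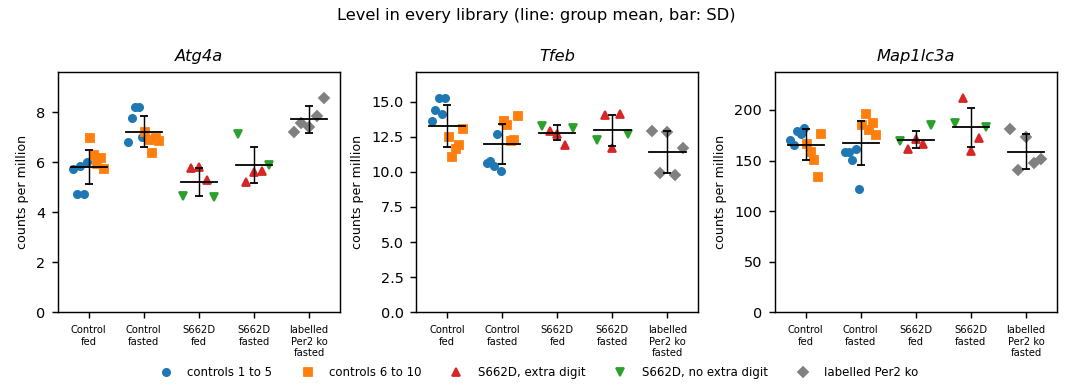
Level in CPM of Atg4a, Tfeb and Map1lc3a in each of the 35 libraries by group, with the group mean (line) and SD (bar); symbols separate control libraries 1 to 5 from 6 to 10 and S662D libraries with from those without the extra digit. Fasted controls 1 to 5 lie below fed controls 1 to 5 for Tfeb and Map1lc3a, and for Atg4a they lie above them.

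The difference between the sets was tested directly, as the interaction of set and fasting among the 20 control libraries, a test added after the data were seen. It called 16.1% of all genes and 9 of the 38. Ulk2 and Rb1cc1, parts of the initiation complex, and Atg2b, a lipid transporter that feeds the growing membrane, had a higher fasted-to-fed ratio in controls 1 to 5, by 0.28, 0.25 and 0.22 on the log2 scale. Atg101, Becn1, Atg4d, Map1lc3a, Gabarapl1 and Tfeb had a lower one, by differences of -0.28, -0.18, -0.32, -0.45, -0.19 and -0.53. The adjusted p of Tfeb was 0.00127, that of Map1lc3a 0.00238 and that of Ulk2 0.00255, all by edgeR. Atg4a, with positive values in both sets, differed by 0.35 between them but was not called (adjusted p = 0.0931).

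The median size of the log2 fold change over the 38 genes was 0.06 in controls 1 to 5 and 0.08 in controls 6 to 10, against 0.02 pooled. Over all genes tested it was 0.12 and 0.11 within the sets, against 0.06 pooled. Each set has fewer libraries than the pool, and the part of that in the larger values was not tested. Signs were opposite for 26 of the 38 genes, and for 10348 of the 17660 genes tested in both sets. The pattern had a relation to gene length. Across the 38 genes, Spearman's rho between exon length and the fasting log2 fold change was 0.31 in controls 1 to 5 and -0.25 in controls 6 to 10. Across all genes it was 0.24 (17775 genes) and -0.27 (17812 genes). These are descriptions across genes that share their libraries, and the part of length, RNA quality or sampling order in the difference was not tested.

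**Figure D4:**
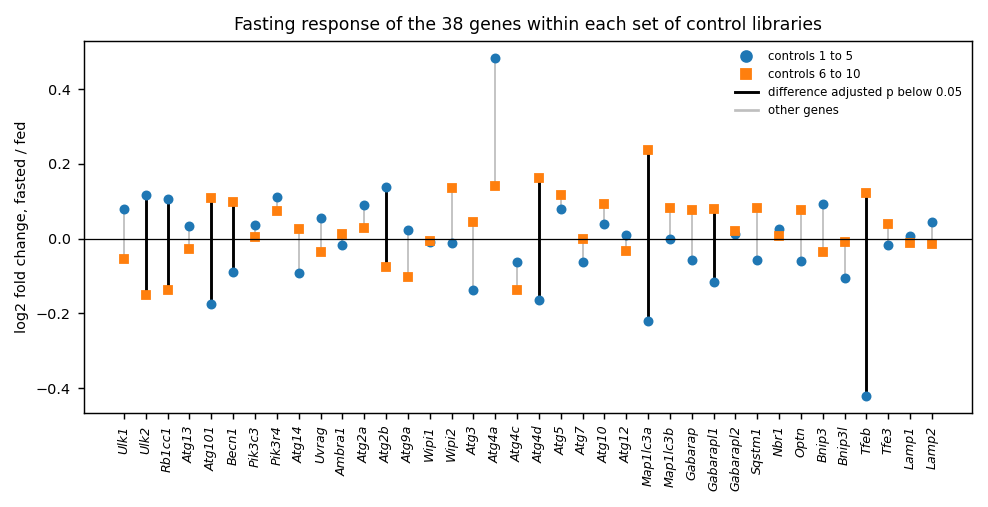
Log2 fold change on fasting of each gene in control libraries 1 to 5 (circles) and 6 to 10 (squares), joined by a line that is black where the difference between the sets passed an adjusted p of 0.05. The 9 black lines cross 0, and the longest belong to Tfeb and Map1lc3a.

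In S662D mice the fast moved no gene of the 38 past the threshold. edgeR called 0 of 38 where it called 2.64% of all genes, 5 of the 38 had an unadjusted p below 0.05 (14.3% of all genes did), and DESeq2 also called 0. The 38 log2 fold changes ran from -0.15 (Wipi1) to 0.17 (Atg4a, SE 0.10, adjusted p = 0.456). The median was 0.02, and the 95% interval of 24 genes lay within 0.2 log2 units of 0.

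The 5 LC3 and GABARAP genes had positive values in this comparison, from 0.09 to 0.17 with a median of 0.10, and none was called. Map1lc3b, the LC3 gene whose protein is the usual marker of autophagosomes, had the smallest adjusted p. Fed S662D libraries 1 to 5 had 195.7, 178.2, 189.1, 179.0 and 180.1 CPM of Map1lc3b. Fasted libraries 1 to 5 had 180.3, 234.7, 212.7, 225.1 and 186.3 CPM. The high fasted values were those of libraries 2, 3 and 4, and libraries 1 and 5 lay inside the fed range. Over all 10 S662D libraries the log2 fold change was 0.17 (SE 0.05, adjusted p = 0.0745 by edgeR). With the extra-digit libraries alone it was 0.30 (adjusted p = 5.09e-04 by edgeR), and with the others alone -0.03 (adjusted p = 0.999). Map1lc3b was the 1 gene of the 38 called with the extra-digit libraries (3.71% of all genes), and 0 were called with the others (0.0373%; 1 of the 38 at an unadjusted p below 0.05). Gabarapl2, a GABARAP relative, had the second smallest adjusted p, 0.313, with a log2 fold change of 0.09.

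Whether the fast acted differently in the 2 genotypes was tested as an interaction. edgeR called 0 of the 38 genes and 0% of all genes, DESeq2 called 0 as well, and 0 of the 38 had an unadjusted p below 0.05, which 6.37% of all genes had. The estimates remained wide: 20 of 38 intervals lay within 0.2 log2 units of 0. Map1lc3b differed by 0.13 (95% interval -0.0028 to 0.26, adjusted p = 0.775) and Gabarapl1 by 0.13 (-0.01 to 0.27, adjusted p = 0.778). The fasting responses of the 2 genotypes, which share no library, had the same sign for 27 of the 38 genes (Pearson's r = 0.37 across genes). With controls 1 to 5 as the only controls, the interaction called 2.73% of all genes and 1 of the 38, Tfeb (0.44), which fell in those controls and had a log2 fold change of 0.02 in S662D mice.

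When the mice were fed, S662D libraries exceeded controls in 2 of the 38 genes, Ulk1 and Atg2b, where 4.69% of all genes were called. An unadjusted p below 0.05 was found for 9 of the 38 and 21.0% of all genes. Ulk1, the kinase that starts autophagy, had 84.5 to 108.4 CPM in fed controls with a median of 92.2. Fed S662D libraries 1 to 5 had 93.2, 113.2, 113.0, 117.6 and 102.9 CPM. Libraries 2, 3 and 4 lay above every fed control, and libraries 1 and 5 within the control range. The log2 fold change of Ulk1 was 0.19 (SE 0.05, adjusted p = 0.0298 by edgeR). The call was lost without S662D library 2, 3 or 4 (0.17, 0.17 or 0.16) or without fed control 3, 4 or 5 (0.19, 0.18 or 0.17).

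Atg2b, the lipid transporter named above, followed the same order of libraries. Fed controls had 64.3 to 80.5 CPM with a median of 68.9, and S662D libraries 1 to 5 had 76.4, 82.4, 81.1, 88.9 and 73.2 CPM. The fold change on the log2 scale was 0.20 by edgeR (SE 0.05, adjusted p = 0.0256), and the call was lost without S662D library 2, 3 or 4 (0.19, 0.20 or 0.16). Atg9a, a membrane protein that seeds the new membrane, came next: S662D libraries 1 to 5 had 65.0, 73.7, 78.8, 81.7 and 60.9 CPM against 56.8 to 68.1 CPM in fed controls. Again libraries 2, 3 and 4 stood above the controls, and the log2 fold change of 0.19 was not called (adjusted p = 0.0580). Of the Atg9a exon bases, 32.6% overlap other genes, Ankzf1 on the opposite strand and Gm29253 on the same strand. Gm29253 holds 29.7% of the 50-base words of Atg9a and had 0 counts in every library.

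By role, the 5 membrane-supply genes all had positive values in fed S662D libraries (0.05 to 0.20), of which 1 was called. Of the 5 LC3 and GABARAP genes, 4 had negative values (median -0.09), and edgeR called none while DESeq2 called Gabarap lower. Gabarap (-0.13, adjusted p = 0.0751) and Gabarapl1 (-0.12, adjusted p = 0.122) were the lowest of these.

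The fed difference depended on which libraries entered. With S662D libraries 2, 3 and 4 alone, edgeR called 8 of the 38 genes (16.9% of all genes). Ulk1, Ulk2, Ambra1, Pik3r4, Atg2b and Atg9a were higher, by 0.15 (Ambra1) to 0.30 (Atg9a), and Gabarap and Gabarapl1 were lower, by -0.22 and -0.23. With libraries 1 and 5 alone it called 0 (0.0854% of all genes; 1 of the 38 at an unadjusted p below 0.05), with Ulk1 at 0.05 and Atg2b at 0.09. Against controls 1 to 5 alone, 5 genes were called (9.79%), and against controls 6 to 10 alone 0 (0.185%; 3 at an unadjusted p below 0.05), with Ulk1 at 0.13 and Atg2b at 0.17. DESeq2 called 5 in the full set, adding Atg9a, Pik3r4 and Gabarap. Gabarapl1 showed the opposite order to Ulk1: fed S662D libraries 1 to 5 had 491.1, 394.5, 421.1, 410.1 and 484.9 CPM, with libraries 2, 3 and 4 below the lowest fed control (438.6 CPM).

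**Figure D5:**
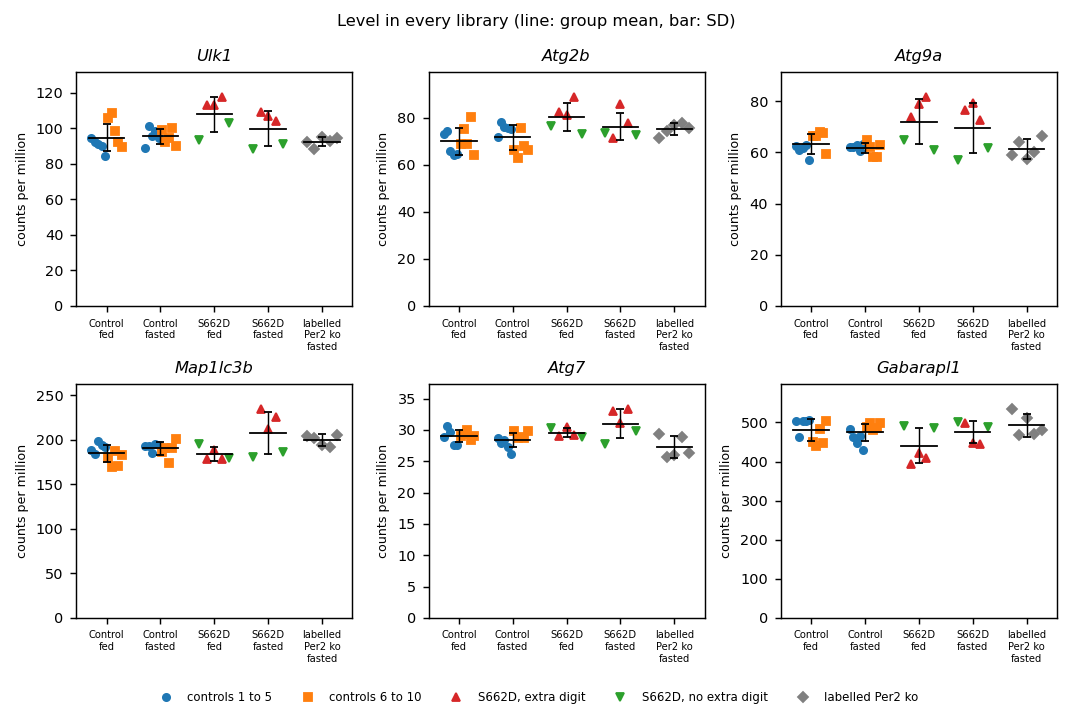
Level in CPM of Ulk1, Atg2b, Atg9a, Map1lc3b, Atg7 and Gabarapl1 in each of the 35 libraries by group, with the group mean (line) and SD (bar); symbols separate the control sets and the S662D libraries with and without the extra digit. For Ulk1 and Atg9a the extra-digit S662D libraries lie above the controls of the same feeding state, and for Gabarapl1 in fed mice they lie below them.

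The fed S662D difference followed exon length. Spearman's rho across the 38 genes was 0.58, against 0.28 across all 18063 genes. The 19 genes with the shorter exons had a median log2 fold change of -0.06 and the 19 with the longer exons of 0.03, split at 4438 bases. With the extra-digit libraries alone rho was 0.61 (0.34 for all genes), and with the other S662D libraries alone 0.08 (-0.01 for all genes). Short genes such as Gabarap and Gabarapl1 were on the low side and long ones such as Atg2b on the high side. Not every gene followed: Map1lc3a, the shortest at 1181 exon bases, was at 0.04, and Lamp2, with 9552, was at -0.05. The part of length in these differences was not tested.

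In fasted mice, S662D differed from control in 1 of the 38 genes, where 5.57% of all genes were called. At an unadjusted p below 0.05 were 5 of the 38, against 20.8% of all genes. Atg4a was lower. Fasted S662D libraries 1 to 5 had 7.11, 5.22, 5.62, 5.67 and 5.87 CPM of Atg4a, and the fasted control libraries given above started at 6.38 CPM. S662D libraries 2 to 5 were below every fasted control, and library 1 was within their range. The log2 fold change was -0.29 (SE 0.09, adjusted p = 0.0423 by edgeR), with -0.36 against controls 1 to 5 (adjusted p = 0.0261) and -0.21 against controls 6 to 10 (adjusted p = 0.263). Those sets gave 2 and 0 called genes among the 38 (9.45% and 0.269% of all genes; 5 of the 38 at an unadjusted p below 0.05 in the second). With the extra-digit S662D libraries alone Atg4a was at -0.39 (adjusted p = 0.0056), and with the others alone at -0.15 (adjusted p = 0.997). The call was lost without S662D library 2, 3, 4 or 5 (-0.25, -0.27, -0.27 or -0.28) or without fasted control 2, 3, 4 or 5 (-0.28, -0.27, -0.27 or -0.29).

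Atg9a (0.17, adjusted p = 0.0836 by edgeR) and Atg7, the enzyme that activates LC3 for conjugation (0.12, adjusted p = 0.0957), came next and were not called. Both differences came from the extra-digit libraries: with those alone Atg9a was at 0.31 (adjusted p = 1.82e-05) and Atg7 at 0.19 (adjusted p = 0.00631), and with the others alone at -0.05 and 0.02. In the first case 7 of the 38 genes were called (17.1% of all genes), and in the second edgeR called 0 (0.112% of all genes; 0 of the 38 at an unadjusted p below 0.05).

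Between fasted libraries labelled Per2 ko and fasted controls, edgeR called no difference in the 38 genes (0 called, against 0.0277% of all genes). An unadjusted p below 0.05 was found for 0 of the 38 and 6.07% of all genes, and DESeq2 called 0. Here 32 of 38 intervals lay within 0.2 log2 units of 0 and 38 of 38 within 0.3 log2 units (a 23.1% change). Bnip3, a receptor for removal of mitochondria that is induced by low oxygen, had the smallest adjusted p (0.817, log2 fold change 0.13), followed by Atg4c (0.842, log2 fold change 0.09). These values pool the 2 sets of control libraries. Against controls 1 to 5 alone, edgeR called 0 of the 38 (0.0113% of all genes), and 0 had an unadjusted p below 0.05. Log2 fold changes there ran from -0.06 (Atg5) to 0.14 (Atg101). Against controls 6 to 10 alone it also called 0 (0.556% of all genes), but 8 of the 38 had an unadjusted p below 0.05. The values there ran from -0.22 (Map1lc3a) to 0.195 (Bnip3).

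Against fasted S662D, the labelled Per2 ko libraries differed in 2 of the 38 genes, with 7.34% of all genes called and 8 of the 38 against 22.4% at an unadjusted p below 0.05. They share the S662D libraries with the comparison above, so the values are given side by side and not as separate support. Atg4a was higher: labelled Per2 ko libraries 1 to 5 had 7.19, 7.57, 7.39, 7.85 and 8.58 CPM, above each fasted S662D library. By edgeR the log2 fold change of Atg4a was 0.38 (SE 0.10, adjusted p = 0.0143). Atg7 was lower, with 29.3, 25.6, 26.0, 28.9 and 26.3 CPM in labelled Per2 ko libraries 1 to 5. Fasted S662D libraries 1 to 5 had 27.8, 33.01, 31.1, 33.3 and 29.8 CPM of Atg7, so the groups overlapped. The log2 fold change of Atg7 was -0.19 (SE 0.05, adjusted p = 0.0220 by edgeR). Without S662D library 2 neither call held (Atg4a 0.35, Atg7 -0.16), and that of Atg7 was also lost without S662D library 4 (-0.16) or labelled Per2 ko library 2, 3 or 5 (-0.16, -0.17 or -0.17). Groups that did not overlap were found for 2 of the 38 genes, Atg4a and Atg4d, and for 4.92% of all genes. In each other comparison of 2 groups the ranges overlapped for all 38 genes, where the share of all genes without overlap was 0.515% (fasting in controls), 3.30% (fasting in S662D), 0.842% and 0.515% (S662D fed and fasted) and 0.0941% (labelled Per2 ko against control). Atg4d, which overlaps Kri1 on the opposite strand, was not called (-0.20, adjusted p = 0.0824). With the S662D libraries without the digit alone, edgeR called 0 of the 38 (0.139% of all genes; 3 of the 38 at an unadjusted p below 0.05), and Atg4a was at 0.25.

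Around the core machinery, a few genes that signal nutrient state changed on fasting. Among 29 nutrient-sensing genes upstream of ULK1 and TFEB, 2 rose and 1 fell in controls by edgeR, where 3.88% of all genes were called. Ddit4, which encodes REDD1, a stress-induced inhibitor of mTORC1, rose by 0.93 on the log2 scale (SE 0.11, adjusted p = 5.52e-07 by edgeR). Sesn1, a sestrin that restrains mTORC1, rose by 0.35, and Ddit4l, a relative of Ddit4, fell by 0.46. Ddit4 held in both control sets (0.86 and 1.01). Sesn1 was at 0.47 and 0.21 and Ddit4l at -0.79 and -0.14 in the first and second set, and in the second set neither was called (adjusted p = 0.0717 and 0.734 by edgeR).

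In S662D mice 2 of the 29 rose on fasting, where 2.64% of all genes were called, Ddit4 by 1.22 (adjusted p = 2.81e-06 by edgeR) and Prkab1, a subunit of the energy sensor AMPK, by 0.23 (adjusted p = 0.0423). Of 8 transcriptional regulators of autophagy, 2 rose in controls (against 3.88% of all genes), Trp53inp1, a stress-induced regulator (0.52, adjusted p = 2.65e-06), and Foxo1, a transcription factor held back by insulin (0.34, adjusted p = 0.00313). Trp53inp1 was at 0.73 and 0.31 in the 2 control sets and called in both, while Foxo1 was at 0.52 and 0.16 and called in the first alone. In S662D mice 1 of the 8 was called (against 2.64% of all genes), Trp53inp1 (0.40, adjusted p = 0.0159).

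Few lysosomal components were called. Of 17 vacuolar ATPase genes, whose products acidify the lysosome, edgeR called 1 higher in each genotype on fasting, where 3.88% (controls) and 2.64% (S662D) of all genes were called. This was Atp6v0e, at 0.31 in controls (0.28 and 0.33 in the 2 sets) and 0.36 in S662D. In S662D, 15 of the 17 had positive values (median 0.09, against 0.0001 over all genes), 6 had an unadjusted p below 0.05, and DESeq2 called 2, Atp6v0e and Atp6v1g2. Of 30 lysosomal enzymes and membrane proteins, edgeR and DESeq2 each called 0 on fasting in either genotype, with 5 and 2 of them at an unadjusted p below 0.05 in controls and S662D. Of 27 other cargo receptors and fusion genes, both tools called 0 in controls (1 at an unadjusted p below 0.05). In S662D edgeR called 1 on fasting, Vmp1, a membrane protein needed to form autophagosomes (0.17), and DESeq2 called 2. These lists, like the 38 genes, were chosen with earlier results of these data known.

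Between genotypes, fed S662D libraries differed from fed controls in 3 of 30, 2 of 17, 2 of 29, 1 of 8 and 3 of 27 genes of the lysosomal, vacuolar ATPase, nutrient-sensing, transcriptional and fusion lists by edgeR, where 4.69% of all genes were called. DESeq2 called 5, 8, 3, 1 and 8 genes of these lists, among them 7 vacuolar ATPase genes that were lower. Of the 17 vacuolar ATPase genes, 14 had negative values and 10 an unadjusted p below 0.05 by edgeR. Sgsh (0.32) and Gaa (0.22), enzymes that break down heparan sulphate and glycogen in the lysosome, and Mtor (0.25), Foxo3 (0.23), Epg5 (0.25), Tecpr1 (0.15) and Atp6v0a1 (0.13) were higher. Ctsl (-0.15), a lysosomal protease, Prkab1 (-0.25), Vmp1 (-0.17) and Atp6v1h (-0.14) were lower. In fasted mice, where 5.57% of all genes were called, the called genes were Npc1, a lysosomal cholesterol exporter (0.18), Atp6v0c (0.18), Vps18 (0.20), Trp53inp2 (0.15) and Zkscan3 (-0.17), all by edgeR, which called 0 of the 29 nutrient-sensing genes (7 at an unadjusted p below 0.05, 1 by DESeq2). In the labelled Per2 ko against control comparison and in the interaction, edgeR and DESeq2 called 0 genes of each list. At an unadjusted p below 0.05 these comparisons had at most 4 and 3 genes in any list. Between fasted labelled Per2 ko and fasted S662D libraries, edgeR called 3 of 30, 3 of 17, 1 of 29, 1 of 8 and 2 of 27 genes of these lists, where 7.34% of all genes were called. Npc1 (-0.25), Man2b1 (-0.17), Atp6v0c (-0.22), Atp6v0a1 (-0.16), Stk11 (-0.19) and Vps18 (-0.20) were lower in the labelled Per2 ko libraries. Ctsl (0.18), Atp6v0e (0.27), Trp53inp1 (0.31) and Fundc1 (0.19) were higher. DESeq2 called 3, 4, 2, 1 and 5 genes. These 3 comparisons with S662D depended on the extra-digit libraries. With the other S662D libraries alone, edgeR called 0.0854% (fed), 0.112% (fasted) and 0.139% (labelled Per2 ko against S662D) of all genes. With the digit as a term it called 0.127%, 0.111% and 0.233%. The values of the list genes within those libraries are not given here.

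TFEB and TFE3 bind the CACGTG E-box, the core of the sequence element shared by many lysosomal genes, and the clock proteins CLOCK and BMAL1 bind the same letters. RefSeq promoter windows (GRCm38.p6, 250 bases before to 50 after each start) matched 32 of the 38 genes with 38 windows; Map1lc3a, Becn1, Rb1cc1, Pik3c3, Atg12 and Bnip3l have no entry. CACGTG, which reads the same on both strands, was in 6 of the 38 windows (15.8%), those of Lamp1, Atg3, Atg5, Atg7, Atg14 and Bnip3, and in 7.15% of all 32851 windows. The longer TCACGTGA, which contains it, was in 1 (Atg3) and in 0.974% of all. The FOXO motif TGTTTAC was in 0 of the 38 windows and in 3.65% of all, on either strand. The full CLEAR element was in 0 and in 0.326% of all, and the glucocorticoid response element in 0 and in 0.0091%. Stretches upstream of the start are shown for Lamp1, which has 4 copies, for Atg3, which has 2, and for Bnip3, with each CACGTG in capitals and the strand being that of the gene.
Lamp1, chr8:13159036-13159160, plus strand: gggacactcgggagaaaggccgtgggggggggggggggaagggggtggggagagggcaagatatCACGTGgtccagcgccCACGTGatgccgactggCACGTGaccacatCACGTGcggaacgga
Atg3, chr16:45158679-45158783, plus strand: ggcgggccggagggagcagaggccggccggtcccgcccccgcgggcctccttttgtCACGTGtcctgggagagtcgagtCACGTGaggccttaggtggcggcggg
Bnip3, chr7:138909526-138909646, minus strand: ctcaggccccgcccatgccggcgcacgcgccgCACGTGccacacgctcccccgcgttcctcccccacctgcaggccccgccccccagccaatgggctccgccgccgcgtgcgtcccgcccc

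The Lamp1 copies begin 61, 45, 28 and 15 bases before the start, the Atg3 copies 94 and 71, and the Bnip3 copy 108. Of the 6 genes with CACGTG, edgeR called Atg7 in labelled Per2 ko against S662D (-0.19, adjusted p = 0.0220, as above) and none of the others in any of the 7 comparisons. The Atg7 window (chr6:114670846-114671145) lies inside the gene as counted, which begins at 114643097, so it is not the window of the first start of that gene. Lamp1 log2 fold changes ran from -0.03 to 0.06. A match is a description of these windows and shows no binding.

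Markers of the cell types in the tissue moved in some of the same comparisons. Hypothalamic genes (Agrp, Pomc, Hcrt, Pmch, Oxt, Avp, Trh, Sim1, Nkx2-1) were detected in every library, with a summed level of 515.7 to 747.1 CPM. Agrp, the neuropeptide of hunger neurons, rose on fasting in controls (0.61, adjusted p = 0.0196 by edgeR). Defining pituitary genes Gh and Prl were at 0 in all libraries of some groups, and the pituitary hormone genes summed to at most 5.95 CPM. Summed neuronal markers (7 genes) ran from 3791 to 4379 CPM over all groups. On fasting edgeR called 0 of them in controls and in S662D (0 and 1 at an unadjusted p below 0.05), and DESeq2 called 0 and 1 (Snap25, higher). On fasting in controls, 2 of 6 microglial markers were lower (Cx3cr1 -0.41, P2ry12 -0.34). Of 6 astrocyte markers, Aqp4 was lower (-0.33) and Agt and Aldh1l1 were higher (0.25 and 0.20). Cldn5 of endothelium was lower (-0.43), Mobp of oligodendrocytes was higher (0.15), and Pdgfra of oligodendrocyte precursors was higher (0.19). On fasting in S662D, where 2.64% of all genes were called, edgeR called 1 marker in each of 4 cell types. Mobp (0.40), Ly6c1 of endothelium (0.40) and Aldh1l1 (0.19) were higher, and Cx3cr1 (-0.43) was lower.

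In fed S662D libraries, Cldn5, Flt1, Cspg4 and Pdgfra were higher (0.31, 0.28, 0.40 and 0.27), and Ly6c1 and Mobp were lower (-0.38 and -0.21), so endothelial markers did not move one way. In fasted S662D libraries, 3 of 5 endothelial markers were higher (Cldn5 0.47, Flt1 0.37, Pecam1 0.28), as were Cspg4 (0.38) and Slc32a1 (0.23). The summed level of all 5 endothelial markers ranged from 174.6 to 229.7 CPM in fasted S662D libraries and from 168.3 to 193.3 CPM in fasted controls. Between fasted labelled Per2 ko and fasted S662D libraries, the same 3 endothelial markers were lower (Cldn5 -0.53, Flt1 -0.44, Pecam1 -0.33), as was Cspg4 (-0.44), and the hypothalamic genes Pmch (0.46) and Hcrt (0.45) were higher. The part of cell makeup in the differences of Ulk1, Atg2b, Atg4a and Atg7 was not tested. Choroid plexus markers summed from 18.2 to 1537 CPM across libraries, with no marker called in any comparison. Genes of other brain regions were Neurod6, Tbr1, Drd2, Prox1 and Gabra6. Their sum was 75.7 to 111.1 CPM in fed S662D libraries and 73.5 to 88.9 CPM in fed controls. There edgeR called Prox1 higher (0.26, adjusted p = 0.0469), 1 of 4 tested, and DESeq2 called Prox1 and Tbr1 higher. In the other comparisons edgeR called none, and DESeq2 called Prox1 lower in labelled Per2 ko against S662D. The part of dissection was not tested.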

How the data were processed

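RNA of 35 hypothalamus libraries (10, 10, 5, 5 and 5 per group) was measured by paired-end sequencing of polyA transcripts. The deposited counts are whole numbers of read pairs per gene name, made by the authors with featureCounts 2.0.1 against mm10 with the GENCODE vM12 annotation, counting reads that map to several places and no strand option, per the file headers. The deposited exon length column of the same files gave the reads per kilobase. Alignment used STAR 2.7.10b, per the submitters' processing notes. Near-identical copies can therefore share counts. Of the 38 genes, 7 overlap other genes in at least 10% of their exon bases. Gm29253 and Gm45507, which overlap Atg9a and Bnip3, had 0 counts in every library, so these pairs shared no counts. How reads over overlapping exons were assigned was otherwise not tested. If such reads were left out of both genes, the levels per length of the overlapping genes would be too low.

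Groups came from the sample titles. Counts were fitted in 1 model over all 35 libraries with edgeR 4.0.16 (quasi-likelihood test, TMM scaling, filterByExpr with a minimum count of 10, 18063 of 49568 gene names tested), with Benjamini-Hochberg adjustment over all genes and a threshold of 0.05. CPM and RPKM values were computed from the counts with the TMM-scaled total over the tested genes of each library. The biological coefficient of variation was 0.0900 in common. Depth ran from 17959586 to 37027342 counts, and no 2 libraries of a group were identical (120 pairs). The scripts were tested on simulated data. Alternatives were DESeq2 1.42.0, other scalings, no filter, a replicate block, the library sets and leaving out each library.

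The 38 genes and all lists were chosen with earlier results of these data known. Named were all called genes, the extremes of level, the 2 genes with the smallest adjusted p per comparison and the called genes of 5 pathway lists. Genes such as Wipi1, Bnip3l, Nbr1 or those called within library sets or by DESeq2 alone, and the test between control sets, were chosen after their values were seen.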

Additional observations from a re-analysis of the deposited data

Results flagged for a closer look

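Single libraries stood apart from their group in 9 of 190 combinations of gene and group, where chance gives about 1 in 20. Among fasted S662D libraries, Atg3 was lowest in library 3 (37.2 CPM, next 42.7), and Atg10 was lowest in library 4 (9.02 CPM, next 10.3). In library 1 of the same group, Atg4c (33.6 CPM) and Atg5 (25.3 CPM) were highest. Among fed S662D libraries, Atg12 was highest in library 3 (60.5 CPM) and Wipi2 in library 4 (151.2 CPM). Among libraries labelled Per2 ko, Atg12 was highest in library 4 (59.9 CPM) and Bnip3l lowest in library 3 (122.7 CPM). Sqstm1 was lowest in fasted control 5 (470.4 CPM, next 520.6). None of these genes was called in a comparison over all libraries.

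The fasting response differed between controls 1 to 5 and controls 6 to 10 in 9 of the 38 genes by the edgeR test of the difference. The first set minus the second was positive for Ulk2 (0.28), Rb1cc1 (0.25) and Atg2b (0.22). It was negative for Atg101 (-0.28), Becn1 (-0.18), Atg4d (-0.32), Map1lc3a (-0.45), Gabarapl1 (-0.19) and Tfeb (-0.53), all on the log2 scale. What separates the 2 sets beyond their library numbers was not tested.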

How the results depend on the processing

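The number of the 38 genes called was within 1.5 times of that reported under the other scalings for all 7 comparisons. With no filter on low counts it fell to 0 for S662D against control in fasted mice and to 1 for labelled Per2 ko against S662D, and DESeq2 called 5 for S662D against control in fed mice. Controls 1 to 5 alone gave 2 (fasting in controls), 1 (interaction), 5 (S662D fed) and 2 (S662D fasted), and controls 6 to 10 alone gave 0 in each of these comparisons. S662D libraries with the extra digit alone gave 1 (fasting in S662D), 8 (S662D fed), 7 (S662D fasted) and 6 (labelled Per2 ko against S662D), and those without it 0 in each. Modelling the digit as a term gave 1, 0, 0 and 0 in the same order. Map1lc3b turned from higher to lower without the extra-digit libraries, on fasting in S662D (-0.0338) and in the interaction (-0.0743). Atg9a in fasted S662D turned to -0.0497 without those libraries and to -0.0377 with the digit as a term. Leaving out 1 library at a time gave 0 to 1 genes for fasting in S662D, 0 to 6 for S662D fed, 0 to 5 for S662D fasted and 0 to 3 for labelled Per2 ko against S662D. The cause of these changes was not tested, beyond the fewer libraries in each subset.

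Replicate numbers were not taken to pair the samples, since the labels tie them to no shared source and not every correlation was over 0.1: fed and fasted controls of the same number had correlations of -0.63 to 0.17, and 0 of 10 correlated best with its own number. In S662D, 4 of 5 pairs had a correlation over 0.1 (median 0.41), and 0 of 5 correlated best with its own number. With the replicate number as a block, 1 gene was called for S662D in fed mice and 0 for S662D in fasted mice, and the counts of the other 5 comparisons stayed at 1, 0, 0, 0 and 2. Atg4a rested on 87 to 213 counts per library.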
